A study of Homo sapiens with 4 samples.

Results

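APC ChIP-seq peaks that the deposited annotation lists under small nucleolar RNA (SNORA and SNORD), small Cajal body RNA (SCARNA) or small nucleolar RNA host gene (SNHG) names were examined in HCT-116 cells. A peak belonged to this set if its gene name in either replicate matched one of these prefixes followed by a digit, with no use of its width or sharing. The set held 45 of 6263 peaks in replicate 1 and 68 of 8393 peaks in replicate 2, under 49 of 6183 gene names. The names were 17 H/ACA snoRNAs (SNORA), 17 C/D snoRNAs (SNORD), 3 scaRNAs and 12 SNHG genes.

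HCT-116 is an established human colon carcinoma line, labelled APC wild-type and CTNNB1ΔSer45, and every sample carried both. Chromatin was taken 24 h after seeding, fixed with 1% formaldehyde for 10 min and precipitated with a polyclonal antibody to the C terminus of APC, and the comparison was pre-cleared input chromatin of the same cells. There were 4 samples, with 2 biological replicates of APC ChIP and 2 of input, and since the replicates were made months apart, an effect of date and one of replicate cannot be told apart. The files gave peak positions and widths only, so sequencing depth was unknown and the input entered only through peak calling. No ChIP with another antibody or from cells without APC was analysed here. APC is best known as the tumor suppressor that holds β-catenin in its cytoplasmic destruction complex, and the study asked where APC is found on chromatin.

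Small nucleolar RNAs guide chemical modification of ribosomal RNA: C/D RNAs guide 2'-O-methylation and H/ACA RNAs guide pseudouridylation, while scaRNAs do the same for spliceosomal RNAs in Cajal bodies. Most human members have no promoter of their own. They are cut from introns of a host transcript, which is often a ribosomal protein gene, a translation factor gene or a non-coding SNHG gene whose spliced RNA has no long reading frame. A few, among them the U3, U8 and U13 RNAs and SCARNA2, are transcribed from their own promoters. The name a peak receives is that of the nearest transcription start site (TSS) in RefGene, and the annotation counts the 5' end of an intronic snoRNA as a TSS. A peak at a host promoter is therefore usually listed under the host, and one in the body or past the end of the host under the snoRNA.

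The RNAs SNORD60, SNORD104, SNORA57 and SNORA76C are shown because a peak of each replicate overlapped the RNA itself and not only its host. SNORD60 (chr16:2205024-2205106, minus strand) and SNORD104 (chr17:62223438-62223517, plus strand) are C/D RNAs, with the C box TGATGA and the last D box CTGA in capitals. SNORA57 (chr11:62432894-62433042, plus strand) and SNORA76C (chr17:62223700-62223832, plus strand, now named SNORA50C) are H/ACA RNAs, with the ACA box in capitals. All were read from hg19 in the direction of transcription, with RNA lengths from RefSeq.
SNORD60: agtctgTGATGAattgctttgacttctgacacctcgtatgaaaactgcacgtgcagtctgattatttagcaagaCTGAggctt
SNORD104: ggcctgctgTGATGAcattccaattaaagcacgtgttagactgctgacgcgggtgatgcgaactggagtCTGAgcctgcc
SNORA57: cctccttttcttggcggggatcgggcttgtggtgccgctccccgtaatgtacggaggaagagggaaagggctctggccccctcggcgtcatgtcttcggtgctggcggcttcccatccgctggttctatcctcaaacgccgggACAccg
SNORA76C: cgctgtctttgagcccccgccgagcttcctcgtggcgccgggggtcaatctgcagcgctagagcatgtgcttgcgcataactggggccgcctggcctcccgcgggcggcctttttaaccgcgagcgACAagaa

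Sharing between replicates was measured first. A peak was called shared when the nearest centre in the other replicate, under any gene name, lay under 400 bp away. In replicate 1, 37 of the 45 snoRNA, scaRNA and SNHG peaks were shared (82.2%, exact 95% interval 67.9 to 92.0), against 3947 of 6218 other peaks (63.5%), with 63.6% over all peaks. In replicate 2, 38 of 68 were shared (55.9%, 43.3 to 67.9), against 3781 of 8325 other peaks (45.4%), with 45.5% over all peaks. The interval of replicate 1 lay above the background share, and the interval of replicate 2 included it. Peaks under ribosomal protein names (RPL and RPS) were shared more often than the set, in 95.7% of 47 and 62.7% of 67 cases. Those under microRNA names (MIR) were shared in 64.3% of 308 and 40.7% of 477. Among the wider 50% of each list the order in replicate 2 turned round, with 42.2% of the set shared, against 51.0% of other peaks. These intervals cover counting error only. Peaks are not replicates, and several lie at the same host.

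Across names, 26 of 49 (53.1%) had a shared peak, with 45.4% over all names in the lists. They were 10 H/ACA, 8 C/D, 2 scaRNA and 6 SNHG names. A peak was listed under 25 names in both replicates, under 20 in replicate 2 only and under 4 in replicate 1 only. Replicate 1 thus held 29 of the 49 names, against 4125 of 6183 over all names. Replicate 2 held 45 of the 49, against 4944 of 6183. The shared peaks formed 37 regions, whose centres were a median of 52.5 bp apart. In 27 of them the centres were under 100 bp apart.

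Peaks of the set were wider than the rest at the median. In replicate 1 the median width was 450 bp (range 87 to 1287), against 370 bp for all other peaks. In replicate 2 it was 641 bp (232 to 3837), against 531 bp. Among shared peaks only, the medians were closer, 450 bp against 432 bp in replicate 1 and 687.5 bp against 644 bp in replicate 2. Peaks under RPL and RPS names had medians of 381 bp and 650 bp. All 37 shared regions were wider in replicate 2, by a median ratio of 1.54 and a range of 1.02 to 6.75. Across the regions, widths in the replicates had a Pearson's r of 0.55 on the log10 scale and a Spearman's rho of 0.57, given as a description because the regions share 2 libraries. Width depends on depth and calling threshold as well as enrichment, and their parts were not tested.

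**Figure D1:**
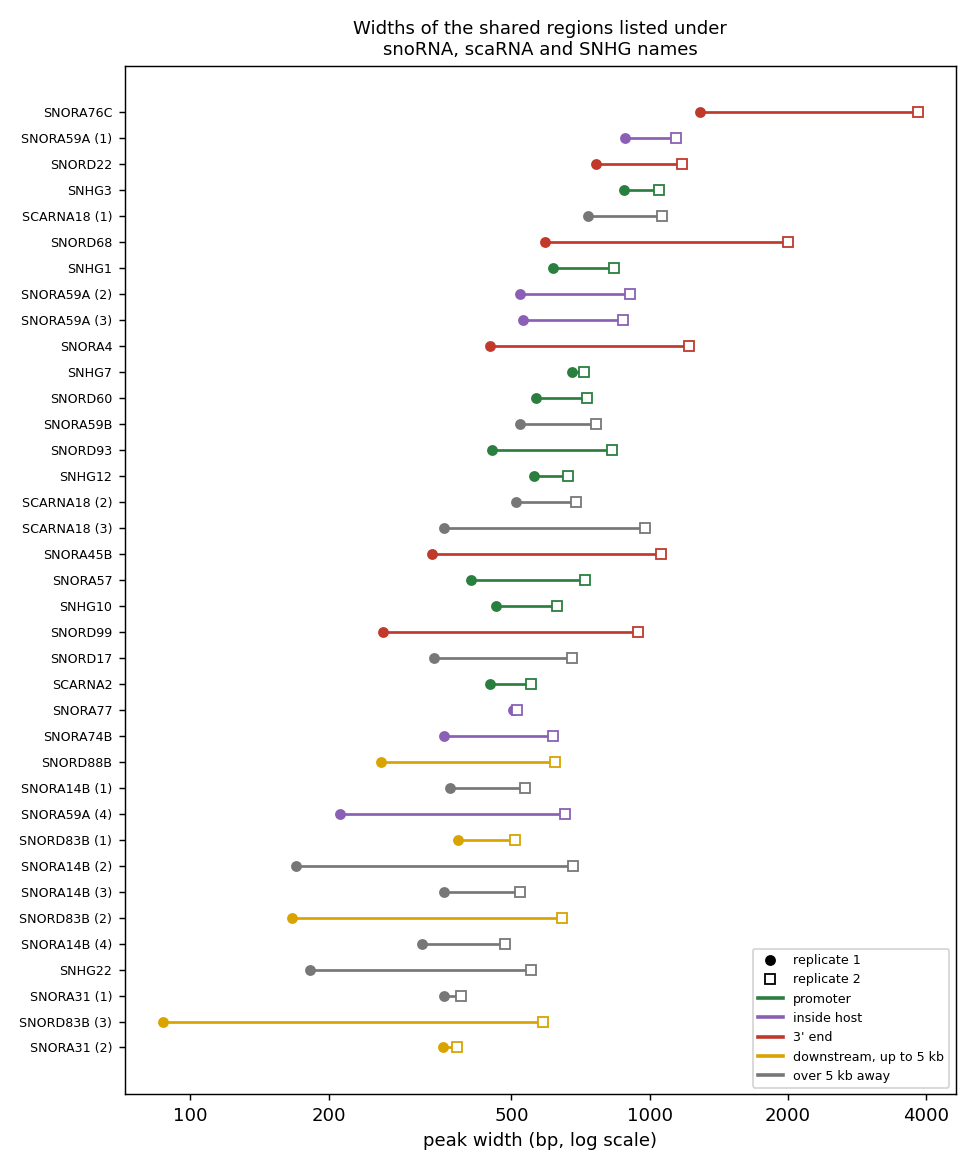
Peak width (bp, log scale) of the 37 shared regions listed under snoRNA, scaRNA and SNHG names in replicate 1 (filled circles) and replicate 2 (open squares), ordered from the top by mean width rank over both lists and coloured by position against the host gene. Replicate 2 was wider in all 37, and the SNORA76C region, 1287 bp and 3837 bp wide, stood at the top.

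The positions of the regions differed by name. Of the 37 shared regions, 9 lay at a promoter (centre up to 1 kb from the canonical start of the host or, for SNHG names and SCARNA2, from the listed start). Another 6 lay at the 3' end of the host (centre up to 1 kb from its canonical end), 6 lay inside the host, 5 up to 5 kb past its end and 11 more than 5 kb away. Counting every annotated TSS of the host, as the count had been planned, 11 regions lay at a promoter, the additions being an alternative start in VPS13D (SNORA59A) and one in RPL27A (SNORA45B). The median widths were 559 bp and 725 bp in the replicates at promoters, 521 bp and 1198.5 bp at 3' ends, and 356 bp and 676 bp for regions over 5 kb away.

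Regions at SNHG promoters were the clearest group. SNHG3 (chromosome 1, 28832293 to 28833171 in replicate 1) had peaks of 880 bp and 1049 bp in the replicates, and SNHG1 (chromosome 11, 62623005 to 62623619) had peaks of 616 bp and 838 bp. The SNHG7 peaks were 676 bp and 720 bp wide (chromosome 9, 139622284 to 139622958), with centres 20 bp apart. At SNHG12 (chromosome 1, 28908073 to 28908630) the widths were 559 bp and 663 bp, and the centres were 3 bp apart. SNHG10 (chromosome 14, 96000843 to 96001305) had peaks of 464 bp and 628 bp. The deposited annotation put both SNHG10 peaks at the promoter of a protein-coding transcript, so they cannot be assigned to SNHG10 alone. These 5 genes are non-coding hosts of snoRNAs or scaRNAs, and in each the centre in replicate 2 lay 18 to 297 bp downstream of the listed TSS.

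Promoter peaks listed under the other SNHG names were called in 1 replicate only. Shared regions at the starts of SNHG19, SNHG26, SNHG29, SNHG32 and SNHG9 were listed under names without the SNHG prefix. The region at SNHG9 (837 bp and 586 bp) was listed under RPS2 and also lay at the RPS2 start, so it cannot be assigned to SNHG9 alone. SNHG5, a non-coding host, had a replicate 2 peak of 1913 bp over its start (chromosome 6, 86387552 to 86389463), with a width rank of 74.5 in that list, and the nearest replicate 1 centre was 34921 bp away. SNHG8, SNHG20, SNHG17 and SNHG11 had replicate 2 peaks of 674, 660, 552 and 434 bp with centres up to 31 bp from the listed TSS. The SNHG20 peak was annotated to the promoter of a protein-coding transcript. SNHG6 had a promoter peak in replicate 1 only, 580 bp wide (chromosome 8, 67837398 to 67837976). The remaining SNHG name, SNHG22, had a shared region of 182 bp and 553 bp that lay 152225 bp from its TSS, in intron 10 of another transcript. Of the 12 SNHG names, 6 therefore had a shared peak, and 5 of these lay at the promoter.

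Some host promoters were listed under the snoRNA. SNORD60 lies in SNHG19, a host only 614 bp long, so the shared region (chromosome 16, 2205018 to 2205583, 567 bp and 730 bp) covered both the host start and the whole RNA. The region listed under SNORD93 (chromosome 7, 22893744 to 22894196, 454 bp and 829 bp) lay 2164 bp upstream of the RNA and 290.5 bp past the start of its host SNHG26, by the replicate 2 centre. At SNORA57, the replicate 2 peak (725 bp) covered the RNA and the start of the host CSKMT, a mitochondrial lysine methyltransferase gene, and the replicate 1 peak of 408 bp (chromosome 11, 62432528 to 62432934) was listed under LOC102288414. SCARNA2, which has no host in the annotation, had peaks of 450 bp and 551 bp over its own start (chromosome 1, 109642541 to 109642989), with centres 98.5 bp apart. Over all, a peak overlapped the RNA it was named for in 4 cases in each replicate: SCARNA2, SNORD60 and SNORA76C in both, SNORD104 in replicate 1 and SNORA57 in replicate 2.

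Of the 9 starts behind promoter regions, 6 are shown, to set the 4 whose region held TATAAA beside 2 whose region did not (SNHG12 and SCARNA2). TATAAA is 1 form of the TATA box that positions RNA polymerase II. Only that exact form was counted, so the TATATAA in the SNHG12 stretch was not. The starts of SNHG3, SNHG10 and SNHG26, whose regions also lacked it, are not printed. Each stretch begins 90 bases before the start and ends 30 bases after it, or at the base before it for the protein-coding gene CSKMT, with TATAAA and GGGCGG on either strand in capitals. They are SNHG7 (chr9:139622606-139622726, minus strand), SNHG19 (chr16:2205376-2205496, minus), SNHG1 (chr11:62623330-62623450, minus), SNHG12 (chr1:28908336-28908456, minus), SCARNA2 (chr1:109642725-109642845, plus) and CSKMT (chr11:62432694-62432783, plus). The start is the listed TSS for members and the canonical GENCODE TSS for SNHG19 and CSKMT.
SNHG7: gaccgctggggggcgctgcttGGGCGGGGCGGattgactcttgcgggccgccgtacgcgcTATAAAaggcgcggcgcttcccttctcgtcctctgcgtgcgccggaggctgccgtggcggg
SNHG19: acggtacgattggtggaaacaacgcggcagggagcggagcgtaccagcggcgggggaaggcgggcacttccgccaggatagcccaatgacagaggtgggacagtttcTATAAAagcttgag
SNHG1: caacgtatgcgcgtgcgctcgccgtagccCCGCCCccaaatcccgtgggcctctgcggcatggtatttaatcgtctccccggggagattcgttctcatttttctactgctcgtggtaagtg
SNHG12: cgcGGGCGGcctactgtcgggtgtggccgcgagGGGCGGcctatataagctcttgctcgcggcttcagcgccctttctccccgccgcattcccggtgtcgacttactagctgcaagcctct
SCARNA2: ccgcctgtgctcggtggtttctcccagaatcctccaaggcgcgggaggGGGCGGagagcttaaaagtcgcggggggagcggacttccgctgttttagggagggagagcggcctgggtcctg
CSKMT: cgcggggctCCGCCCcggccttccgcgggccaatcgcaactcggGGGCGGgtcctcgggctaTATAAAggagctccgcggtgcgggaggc

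Motifs were counted on both strands in 301 bp around the replicate 1 centre. TATAAA was present in 4 of the 9 regions at a promoter (44.4%, exact interval 13.7 to 78.8), at SNHG1, SNHG7, SNORD60 and SNORA57, against 5.36% of the 1475 shared regions of the series up to 1 kb from a TSS. At SNHG7 and CSKMT it began 30 and 28 bases upstream of the start. In SNHG19 it began 17 bases downstream, and at SNHG1 it lay outside the stretch shown. GGGCGG was present in 7 of 9 (77.8%), against 67.2%, and CACGTG, the E-box, in 3 of 9 (33.3%), against 32.0%. The AP-1 motif TGACTCA or TGAGTCA was in none of the 9, against 4.88%. Of these 4 motifs, only TATAAA had an interval that left out the background share, which is given as a description.

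The motif content was different far from promoters. TGACTCA or TGAGTCA was present in 8 of the 11 regions over 5 kb from the host (72.7%, exact interval 39.0 to 94.0), against 45.6% of the 2509 shared regions over 1 kb from a TSS, a share inside that interval. Of the 28 shared regions of the set outside promoters, a nearer match to that background, 11 held the motif (39.3%, 21.5 to 59.4). It was found in none of the 6 regions at 3' ends. The 8 were all 4 shared regions of SNORA14B, 2 of the 3 of SCARNA18, the distant one of SNORA31 and that of SNHG22.

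Several of these names had many peaks. SNORA14B, an H/ACA RNA inside TOMM20 (a mitochondrial import receptor gene), had 10 peaks over both lists, and its shared regions were 170 to 368 bp wide in replicate 1 and lay 48385 to 180130 bp from the RNA. SNORA59A, which lies in VPS13D (a lipid transfer protein gene), had 9 peaks, all inside the host. Its 4 shared regions lay 20609 to 73569 bp upstream of the RNA in introns 65 and 67, and the widest (chromosome 1, 12538073 to 12538953) was 882 bp and 1141 bp wide. The others of this name measured 523 bp and 907 bp (intron 65), 531 bp and 876 bp, and 212 bp and 653 bp. SNORA59B, which the lists place at the same start, had 1 region 32997 bp beyond it (521 bp and 765 bp), and the lists do not tell the 2 names apart. GENCODE places SNORA59B on chromosome 17, inside SLC47A1, so the listed name of this region conflicts with that annotation. SCARNA18 had 6 peaks that formed 3 shared regions, 87275 to 95097 bp from the RNA, the widest of 733 bp and 1066 bp (chromosome 5, 82271446 to 82272177). SCARNA27, inside EEF1E1, had only replicate 2 peaks, 438 bp and 394 bp wide. SNORA31 lies in TPT1, the gene of the translationally controlled tumor protein, and had 5 peaks with shared regions of 356 bp and 389 bp and of 354 bp and 380 bp. The names of these distant regions come from the RefGene starts that the lists used. In GENCODE a start of the host was often nearer, as at the widest SNORA59A region, whose replicate 2 centre lay 179.5 bp from a VPS13D start and 28875.5 bp from the RNA.

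A separate group lay at the ends of host genes. SNORA76C had the widest region of the set (chromosome 17, with a replicate 1 peak at 62223760 to 62225045 inside a replicate 2 peak at 62222806 to 62226641), with widths of 1287 bp and 3837 bp. The replicate 2 peak ranked 13 of 8393 by width and covered all of the host SNHG25, which is 540 bp long and holds SNORD104 and SNORA76C. Replicate 1 had 3 peaks inside it. Those listed under SNORD104 (703 bp) and at 2096 bp past the RNA start (680 bp) were counted as unshared. Their centres lay 1325 bp and 1071.5 bp from that of the wide peak. The deposited annotation put the 680 bp peak in the 3' UTR of a protein-coding transcript, so the wide peak cannot be assigned to SNHG25 alone. SNORD22 was listed for a region at the end of SNHG1 (chromosome 11, 62618583 to 62619346, 765 bp and 1177 bp), with its centre 467.5 bp past the canonical end. SNORD99 had the same arrangement at the end of SNHG12 (262 bp and 943 bp, 683.5 bp past the end).

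Protein-coding hosts had such regions too. At RPL13, a large ribosomal subunit protein gene, the region listed under SNORD68 (chromosome 16, 89631336 to 89631926, 592 bp and 1998 bp) lay 958 bp past the canonical end. A second replicate 1 peak of 995 bp beside it overlapped the same replicate 2 peak but was unshared, with centres 566.5 bp apart. At EIF4A2, a translation initiation factor gene, the SNORA4 region (chromosome 3, 186507709 to 186508157, 450 bp and 1220 bp) lay 474 bp past the end. At RPL27A the region listed under SNORA45B measured 335 bp and 1057 bp (chromosome 11, 8710524 to 8710857). Here the centres lay before the canonical end, 13.5 bp and 230.5 bp from the alternative RPL27A start, which both peaks covered. That region cannot be assigned to the 3' end alone. Of the hosts of these 6 regions, 5 also had a shared region at their listed start, under the names SNHG1, SNHG12, RPL13, EIF4A2 and RPL27A. At SNHG12 that region lay 1149.5 bp past the canonical GENCODE start. At RPL13 those starting peaks were 693 bp and 1218 bp wide. SNHG25 was the exception, its start lying inside the wide replicate 2 peak. SNORD83B had 3 shared regions 1143.5 to 3939.5 bp past the end of RPL3, with widths from 87 bp to 383 bp in replicate 1 and from 509 bp to 643 bp in replicate 2.

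**Figure D2:**
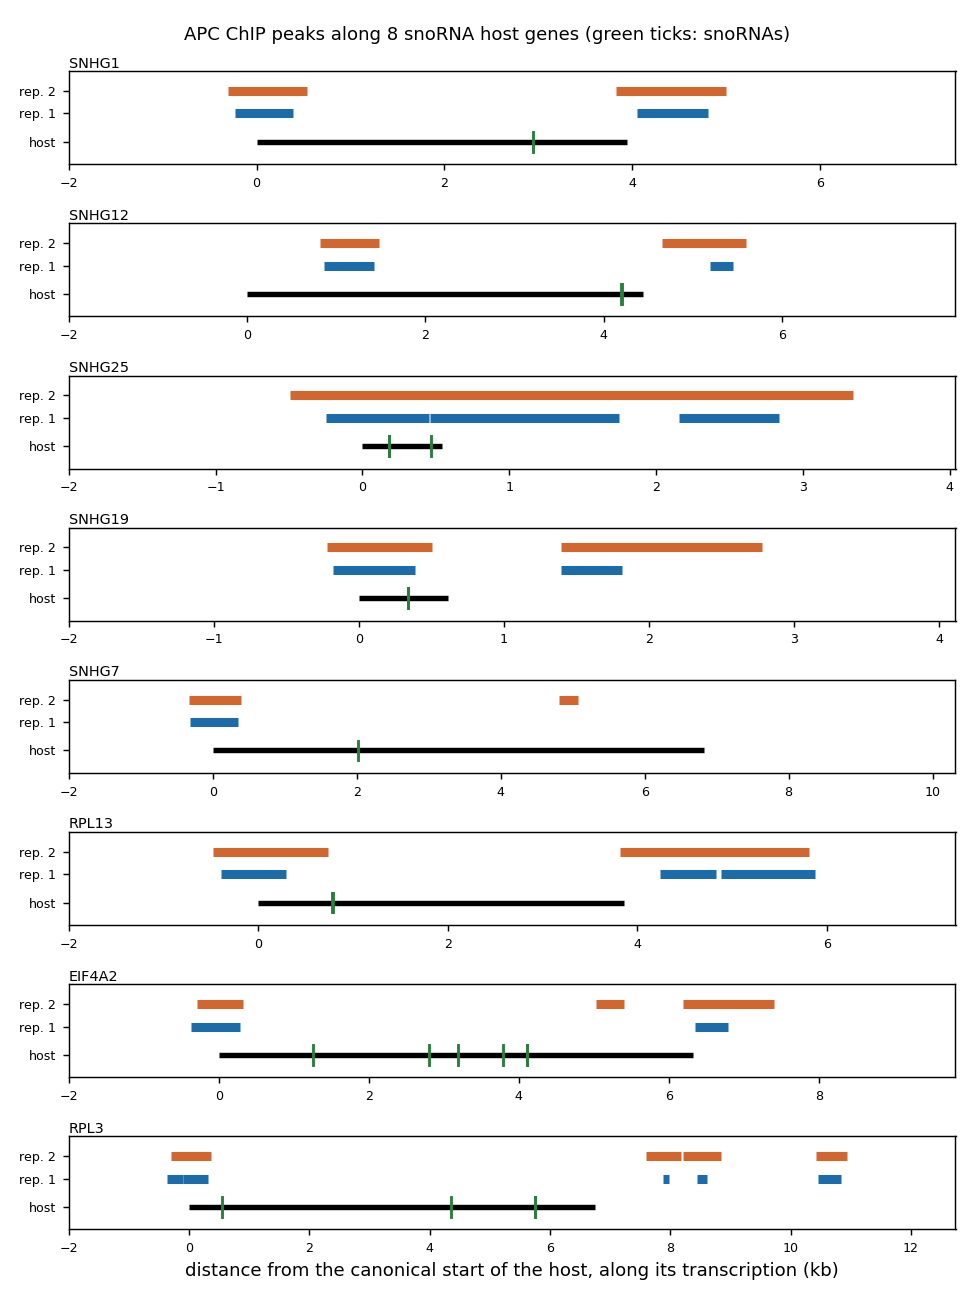
APC ChIP peaks of replicate 1 (blue) and replicate 2 (orange), under any gene name, along 8 snoRNA host genes (black bars, canonical transcript), plotted by distance from the host start along transcription in kb. Green ticks are the snoRNAs that GENCODE or the lists place in the host. SNHG1, SNHG12, RPL13 and EIF4A2 had peaks of both replicates near the start and around or past the end, and SNHG25 lay within the wide replicate 2 peak.

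Ends of genes were therefore counted over all peaks. A centre lay up to 1 kb from the canonical end, and over 1 kb from any canonical start, of a protein-coding or lncRNA gene for 8 of 45 snoRNA, scaRNA and SNHG peaks in replicate 1 (17.8%, exact interval 8.00 to 32.1), against 132 of 6218 other peaks (2.12%), with 2.24% over all peaks. In replicate 2 the count was 17 of 68 (25.0%, 15.3 to 36.98), against 193 of 8325 (2.32%), with 2.5% over all peaks. The deposited annotation put 4 of 45 peaks (8.89%) in the TTS class (transcription termination site) in replicate 1 and 13 of 68 (19.1%) in replicate 2, against 1.70% and 1.98% of other peaks and 1.76% and 2.12% of all peaks. That class also takes in the ends of the small RNAs themselves and of other transcripts, so it is no independent measure of host ends. The replicate 1 peak of SNORA76C, for example, was assigned to the end of SNORD104. Starts had the opposite order, with 24.4% of peaks of the set up to 1 kb from a canonical start in replicate 1 and 20.6% in replicate 2, against 38.9% and 31.4% of other peaks (38.8% and 31.3% of all peaks).

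Naming by the nearest TSS fixes part of this, since it gives peaks in the later part of a host to an intronic snoRNA and peaks at the start to the host. Peaks listed under microRNA names (MIR), which are also often intronic, lay at gene ends in 2.60% of 308 cases in replicate 1 and 3.98% of 477 in replicate 2. Their median distance to the listed TSS was 27566.5 bp and 27369 bp, against 4005 bp and 2879 bp for the set. They are therefore no matched control. Host length, which is short for genes such as SNHG25 (540 bp), was not matched, and its part was not tested. Peaks listed under ribosomal protein names (RPL and RPS) lay at starts in 97.9% of 47 and 94.0% of 67 cases.

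**Figure D3:**
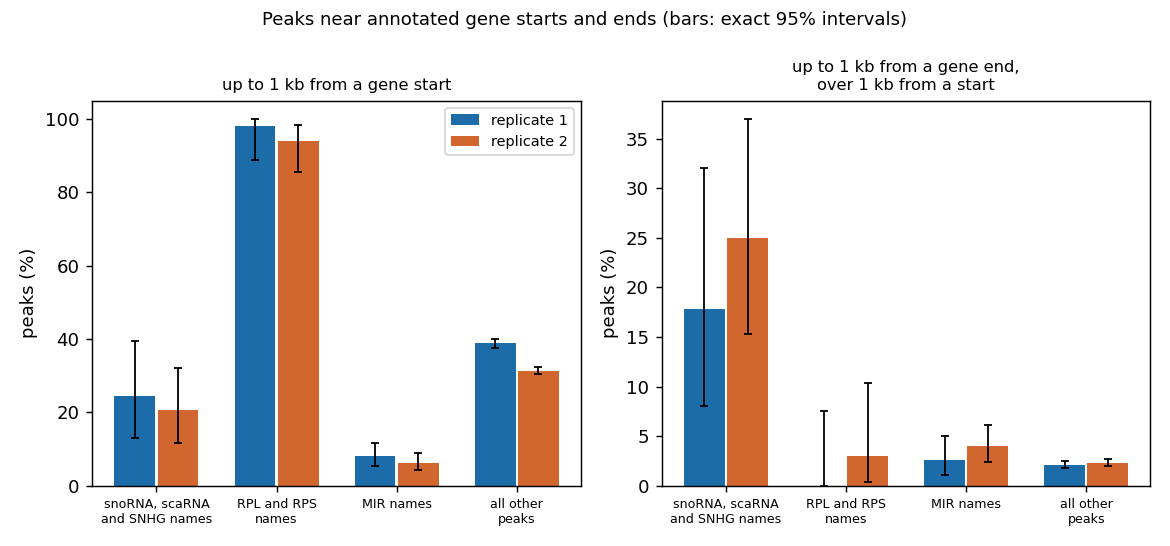
Share of peaks (%) with the centre up to 1 kb from a canonical gene start (left) or from a gene end and over 1 kb from a start (right), for snoRNA, scaRNA and SNHG names, RPL and RPS names, MIR names and all other peaks, in replicate 1 (blue) and replicate 2 (orange), with exact 95% intervals for counting error. At gene ends the snoRNA, scaRNA and SNHG names reached 17.8% and 25.0%, against 2.12% and 2.32% of all other peaks.

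The unshared peaks of the set included 30 in replicate 2 and 8 in replicate 1. The widest in replicate 2 were those at the SNHG5 promoter (1913 bp), at the 3' end of SNHG3 (1652 bp, 4337 bp from the nearest replicate 1 centre) and past the end of SNHG19 under SNORD60 (1389 bp). At the last of these a replicate 1 peak of 420 bp overlapped it, with centres 482.5 bp apart. Other 3' end peaks of replicate 2 only were at RPS2 (SNORA10, 639 bp and 486 bp), RPL13A (SNORD35A, 1051 bp), NCL (SNORA75, 782 bp and 297 bp), RACK1 (SNORD96A, 345 bp) and SNHG6 (SNORD87, 797 bp). In all, 14 replicate 2 peaks and 7 replicate 1 peaks of the set were placed at a 3' end, of which 6 in each were shared.

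To leave the naming out, the hosts of annotated RNAs were examined. GENCODE placed 316 snoRNA and scaRNA genes at 1 locus on the chromosome that RefSeq gives, of which 307 lay inside a gene on the same strand. These had 136 hosts, 135 of them with a canonical protein-coding or lncRNA transcript. Host genes whose RNAs were outside the 316, such as SNHG1, SNHG7 and RPL27A, were not among them. Of the 135, 51 (37.8%, exact interval 29.6 to 46.5) had a shared region of any name up to 1 kb from the canonical start, against 7.66% of 19894 protein-coding and 2.6% of 18702 lncRNA genes. Counted by RNA, 81 of 307 (26.4%) lay in a host with such a region. Each replicate alone gave 59 hosts (43.7%) in replicate 1 and 71 (52.6%) in replicate 2, against 11.8% and 13.4% of protein-coding genes.

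Ribosomal protein genes made up part of this. Of the 24 that host a listed snoRNA, 16 had a shared region at the start (66.7%, 44.7 to 84.4), against 29 of the 62 that do not (46.8%, 34.0 to 59.9), and these intervals overlap. The 62 include RPL27A, which holds SNORA45B, so they are not a group without snoRNAs. The other 90 protein-coding hosts had 26 (28.9%, 19.8 to 39.4). Among them were NCL (nucleolin), NOP56 (a core C/D protein), GNL3 (nucleostemin) and EIF4A1 (a translation initiation factor). Non-coding hosts had 9 of 21 (42.9%, 21.8 to 66.0), and all SNHG genes of the annotation had 9 of 28 (32.1%, 15.9 to 52.4). These counts use canonical starts and so leave out SNHG12, and with the start of any transcript they were 10 of 21 and 10 of 28. The SNHG count includes SNHG9, whose region also lay at the start of RPS2 and was counted there too. Many hosts are highly expressed housekeeping genes. Expression was not measured here, and its part in these shares was not tested.

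At host ends the shares were lower. A shared region lay up to 1 kb from the canonical end, and over 1 kb from the start, in 6 of 135 hosts (4.44%, 1.65 to 9.42), against 0.648% of protein-coding genes. The 6 were RPL13, EIF4A1, EIF4A2, SNHG12, SNHG25 and TMEM107. The TMEM107 region covered SNORD118 (U8), an RNA with its own promoter, so it may not be a host end. SNHG1 also had a shared region at its end but was not among the 135. In replicate 2 alone it was 13 of 135 (9.63%), against 1.41%. Ribosomal protein genes without a listed snoRNA, RPL27A among them, had 9 of 62 in replicate 2 (14.5%, 6.86 to 25.8). Since RPL27A holds SNORA45B, these 62 are not a group without snoRNAs. Whether ribosomal protein genes that hold no snoRNA have peaks at their ends was not tested.

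**Figure D4:**
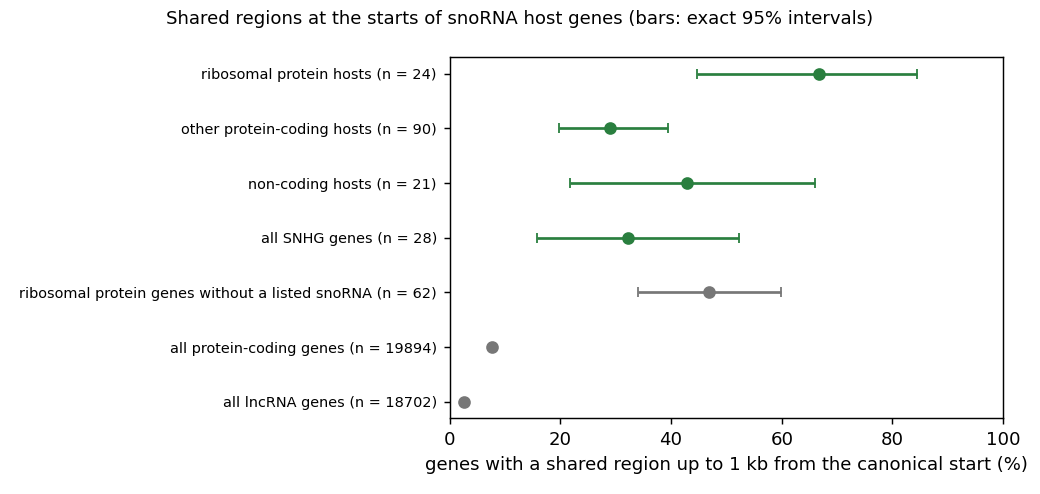
Share of genes (%) with a shared region up to 1 kb from the canonical start, for groups of snoRNA host genes (green) and for ribosomal protein genes without a listed snoRNA, all protein-coding genes and all lncRNA genes (grey), with exact 95% intervals for counting error and the number of genes in each group. Ribosomal protein hosts (66.7%) stood at the top and the groups of all genes at 7.66% and 2.6%, while the intervals of ribosomal protein genes with and without a listed snoRNA overlapped.

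Start sequences of hosts were compared as well, because many hosts are TOP genes, whose transcripts begin with a C followed by a run of pyrimidines. A run of at least 8 bases that began with C within 20 bases of the canonical TSS was present in 43 of 135 hosts (31.9%, 24.1 to 40.4), against 15.4% of protein-coding genes. Ribosomal protein genes, with or without a snoRNA, had it in 69 of 86 (80.2%), and SNHG genes in 3 of 28 (10.7%, 2.27 to 28.2). The part of ribosomal protein genes in the share of the hosts was not tested. The run was present in 20 of the 51 hosts with a shared region at the start (39.2%) and in 23 of the 84 without (27.4%), and the exact intervals of these shares overlapped (25.8 to 53.9 and 18.2 to 38.2). Among all protein-coding genes with a shared region at the start, it was in 15.4%.

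SnoRNAs with their own promoters were then sought under other names. A shared peak in both replicates overlapped 9 of the 316 annotated RNAs. Of the 9 RNAs without a host, 5 were overlapped (55.6%, 21.2 to 86.3), against 4 of the 307 with one (1.30%, 0.356 to 3.30). The 5 were SNORD13 (U13) and the U3 copies SNORD3A, SNORD3B-1, SNORD3B-2 and SNORD3C, and those with a host were SNORA57, SNORD60, SNORD12C in ZFAS1 and SNORD118 (U8), which has its own promoter but lies within the annotated TMEM107 gene. None of the peaks over SNORD13, SNORD118 and the U3 genes was listed under a snoRNA name. They were listed under TTI2, TMEM107, GRAP, LOC388436 and LOC79999.

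Peaks over these RNAs reached across the start. SNORD13 had peaks of 555 bp and 1140 bp, with centres 122.5 bp apart (chromosome 8). SNORD118 had peaks of 637 bp and 1022 bp, both covering the whole RNA. At SNORD3A the replicate 1 peak of 784 bp ran from 250 bp upstream to 532 bp downstream of the annotated start, and the replicate 2 peak of 1165 bp from 308 bp upstream to 855 bp downstream. SNORD3B-1 had peaks of 821 bp and 1126 bp, and SNORD3B-2 of 893 bp and 1006 bp. The U3 genes are near-identical copies in pairs on chromosome 17, reads may have been split or misplaced among them, and their 4 results are uncertain and not independent. These 6 genes were chosen after their peaks were seen.

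**Figure D5:**
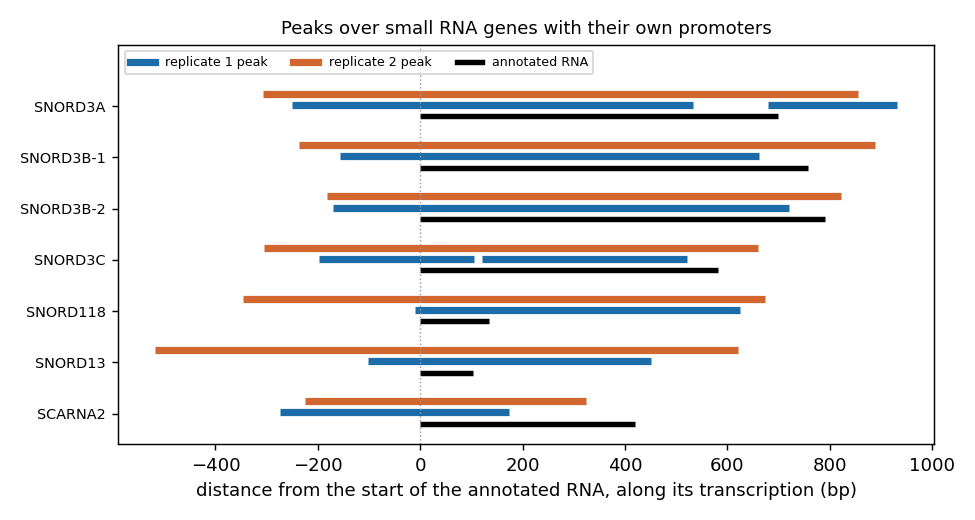
Peaks of replicate 1 (blue) and replicate 2 (orange) over 7 small RNA genes that have their own promoters, plotted by distance in bp from the start of the annotated RNA along its transcription, with the RNA in black. At SNORD3A the peaks ran from 250 bp and 308 bp upstream of the start to 532 bp and 855 bp downstream, and every gene had a peak of each replicate across its start.

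Genes of other small non-coding RNAs, listed by their names (RNU, RN7S, RMRP, RPPH1 and VTRNA), had 9 of 11 peaks shared in replicate 1 (81.8%, exact interval 48.2 to 97.7) and 9 of 17 in replicate 2 (52.9%, 27.8 to 77.0). Both intervals include the shares over all peaks, 63.6% and 45.5%. In replicate 1, 7 of the 11 lay up to 1 kb from the listed TSS, against 37.5% of all peaks, and in replicate 2, 10 of the 17, against 30.1%.

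The proteins that act with snoRNAs were examined from a list of 25 genes. A shared region was listed under 7 of them (28.0%, exact interval 12.1 to 49.4), against 10.9% of 20149 protein-coding genes. NOP56 and NCL are themselves snoRNA hosts, with shared regions at the start of 357 bp and 415 bp and of 394 bp and 973 bp. NOLC1, a nucleolar and Cajal body chaperone gene, had 533 bp and 1158 bp, and NPM1, the gene of the nucleolar protein nucleophosmin, 466 bp and 961 bp. COIL, which encodes the Cajal body marker coilin, had 282 bp and 548 bp, and NUFIP1, an assembly factor gene, 350 bp and 422 bp, both at the promoter. The region of the seventh, ZNHIT6, lay 142039 bp from its TSS. No peak of either replicate was listed under FBL, the C/D methyltransferase gene, DKC1, the H/ACA pseudouridine synthase gene, SNU13 or NHP2. In replicate 2 alone, 16 of the 25 had a peak, against 19.5% of protein-coding genes, and in replicate 1 alone 9 of the 25, against 16.3%.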

How the data were processed

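APC ChIP and input chromatin of HCT-116 cells were sequenced in 2 replicates each. The authors aligned single-end reads to hg19 with BWA, ran MACS2 on each ChIP library with the matching input, and tuned the score threshold to keep known target loci (MYC, DKK1 and AXIN2), per the methods of the study. The deposited lists give positions, widths in bp (in a column headed as a peak score) and distances to the nearest RefGene TSS, with no read counts, so depth is unknown. Versions of BWA and MACS2 are not given in the sources used here. Columns of unmapped samples numbered 0.

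Member loci were rebuilt from the deposited distances. Hosts, starts and ends came from GENCODE release 44 on GRCh37, the build of the lists, and RNA lengths and chromosomes from RefSeq. A host contained the RNA on its strand and was over 1.2 times as long. Intervals are exact Clopper-Pearson (Python 3.11.15, scipy 1.17.1). For all 45 replicate 1 peaks of the set, the distance to replicate 2 in the deposited table of the authors was within 2 bp of the recomputed one. The sharing step was tested on simulated lists. Ribosomal protein names left out the RPS6K kinases, which the planned prefix would have taken in.

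Named were the 12 widest shared regions, shared regions at a promoter or over the RNA, all SNHG and SCARNA names, the 5 names with the most peaks, the 3 widest unshared peaks per replicate and snoRNP protein genes with a shared region. Genes of other peaks at 3' ends, EIF4A1, GNL3 and the genes with own promoters were named after their values were seen. Members, lists and position classes were chosen with earlier results of these data known. Alternatives changed the sharing distance, width, choice of start, overlap and replicate.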

Additional observations from a re-analysis of the deposited data

How the results depend on the processing

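Of the values recomputed under another setting, 44 stayed within 1.5 times of the reported count or median and 14 did not. With only the wider 50% of each list, 18 replicate 1 and 19 replicate 2 peaks were shared, under 16 names, 46 annotated RNAs had a shared region at the host start and 4 snoRNP genes had one. In that setting the share of shared replicate 2 peaks was 42.2% for snoRNA, scaRNA and SNHG names, against 51.0% for other peaks, the opposite order to the full lists, and 72.0% against 68.8% in replicate 1. The cause was not tested. With promoters taken up to 5000 bp, 20 shared regions, 26 replicate 1 peaks and 44 replicate 2 peaks lay at one. Requiring the peak centre inside the RNA left 0 peaks in replicate 1 and 2 in replicate 2, and requiring the whole RNA to be covered left 2 in replicate 1. Using either replicate alone gave 29 to 45 names, 93 to 126 annotated RNAs and 9 to 16 snoRNP genes. In settings chosen after seeing the data, canonical host starts (listed starts for SNHG names) in place of all host starts gave 9 shared regions, 11 replicate 1 peaks and 15 replicate 2 peaks at a promoter, and all host starts in place of canonical ones gave 84 annotated RNAs.

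No paired analysis was possible because no result comes from a test across samples and the input samples have no values of their own here. With 2 replicates, no depth and no control antibody, peaks found in 1 replicate cannot be told from peaks missed in the other.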
